A study of Homo sapiens with 60 samples.

Results

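HT29 cells, an established human line from a colorectal adenocarcinoma, received an ethanol extract of Polygalae Radix, the root of Polygala plants used in East Asian herbal medicine, for 24 h. The comparison set 2 libraries at the medium dose of 76 µg/mL against 2 libraries at the low dose of 15.2 µg/mL, a 5-fold step between doses. These 4 of the 60 libraries of the series were chosen by their dose labels, with no measured value, and their column names place them in the same library set. By the rule of the design text the high dose of 380 µg/mL was the IC20, the concentration that inhibits by 20%, and the other doses were its 1/5 and 1/25 dilutions. Also used were the vehicle libraries (DMSO alone, 3 libraries), the high dose (2 libraries), and Aucklandiae Radix, another root extract of the same library set, at 74 and 14.8 µg/mL (2 libraries each). For a range of the same step, 5 other extracts at 100 and 20 µg/mL were used: Menthae Herba, Saposhnikoviae Radix, Saengmaek-san and Guibi-tang (3 libraries a dose, less 1 left out of Saposhnikoviae Radix low) and Soyo-san (2 libraries a dose). Vehicle libraries carry another library set name than the Polygalae Radix libraries, so a difference between vehicle and any dose cannot be told apart from one between sets. The vehicle is labelled 0.1% DMSO for the samples and 2% in the design text. Replicates of each Polygalae Radix dose are labelled 2 and 3, and no label states that they came from different cultures. The p-values therefore reflect only how libraries varied, which may be technical.

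Levels are CPM, counts scaled to library size, with edgeR's TMM factors, and differences are log2 fold changes, medium minus low, with their standard error (SE). A gene is said to have risen, fallen or been called when its Benjamini-Hochberg adjusted p in edgeR's quasi-likelihood test was under 0.05 over all 16978 genes tested. Total expected counts were 25042973 and 22495654 in the medium libraries and 21618806 and 23092545 in the low libraries, within the range of 17079221 to 36796414 over the series. The epithelial identity of HT29 was visible at both doses. The 11 colorectal epithelial markers summed to 12599 to 13751 CPM at the medium dose and 11921 to 12040.5 CPM at the low dose. Marker sums for fibroblasts (1.59 to 2.18 against 2.61 to 2.84 CPM), blood cells (7.70 to 8.39 against 5.60 to 6.5 CPM), hepatocytes (18.0 to 18.4 against 19.3 to 19.6 CPM) and neuroendocrine cells (1.64 to 1.66 against 1.46 to 1.51 CPM) were low, and COL1A2, ALB and NEUROD1 had 0 counts in all 4 libraries. In bulk RNA, fewer cells of a kind and less RNA per cell cannot be told apart. One library stood apart: low replicate 3 had 0.322% of its counts on processed pseudogenes, against 0.207% in low replicate 2, 0.213% and 0.202% in the medium libraries and a median of 0.201% over the 60 libraries, 2 of which were above it.

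Lysosomes are acidic organelles in which hydrolases digest proteins, lipids and sugar chains delivered by endocytosis and autophagy. A proton pump, the V-ATPase, acidifies them. On their surface the Rag GTPases, anchored by the Ragulator complex and regulated by folliculin with its FNIP partners, report nutrient state to the growth kinase mTORC1. Transcription factors of the MiT/TFE family (TFEB, TFE3 and MITF) are known to bind E-box sequences with the core CACGTG and to drive many genes of this system when they enter the nucleus. Several other groups covered here, such as targets of the oxidant-sensing factor NRF2, ferritins and amino acid synthesis genes, are known to respond to cell stress.

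Between the doses 482 genes rose and 358 fell, and genes of the lysosome and its nutrient-sensing machinery, of amino sugar salvage and of ferritin were among the rises. The 840 calls were 4.95% of the genes tested, with 2.84% called as rises and 2.11% as falls, and the median difference over all tested genes was -0.01. Counts of list members below are to be read against these shares. The lists and their members were chosen with earlier results of these data known, so these counts describe the lists and are not tests of them. At an unadjusted p under 0.05 there were 2909 genes. Of the 840 called genes, 6 had libraries of both doses that overlapped. A small p itself favours genes without overlap, and the share over all tested genes is not given here, so this count is no result about the called genes. The largest rises and falls named were also chosen without overlap, so its absence adds no support to a call. Most differences were small: 69 rises and 80 falls reached 1.5-fold, and 17 rises and 50 falls reached 2-fold. Of those 50 falls, 41 were annotated pseudogenes. Outside pseudogenes 479 genes rose and 312 fell. Genes that rose had transcripts with a median GC content of 56.9%, genes that fell 45.8% and all tested genes 48.6% (outside pseudogenes for the called genes). With per-library offsets for GC content and length, the counts were 504 rises and 532 falls, and the part of GC content in single calls was not tested further.

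The number of calls depended on single libraries and on which libraries shared the estimate of the spread. Without medium replicate 2 it was 269, without low replicate 3 it was 366, without low replicate 2 it was 557 and without medium replicate 3 it was 860. A fit that also held the library labelled Saposhnikoviae Radix low replicate 2, which stands apart from its group, called 86 genes, and a fit of the 4 libraries alone called 192. With that library in the fit 33 of the 146 called genes that the text or its gene lists name kept their call, SQSTM1, NEU1, RRAGC, FLCN, UAP1L1, GNPDA1 and FTH1 among them, while FNIP1, CTSD, FTL, ALDH1A1, VIL1, NOX1 and PRKDC did not. Of the same 146 genes, 60 kept their call without any 1 of the 4 libraries. Such a gene is said below to hold. These refits still shared the spread of the other groups. In the fit of the 4 libraries alone 56 of the 146 kept their call. Genes that hold but lost the call there include CTSD, ABCC3, AQP1, SERPINA5, HADHA, PSAT1, PGK1, LDHA and ATP5F1A. Their adjusted p in that fit was 0.056 to 0.114 (edgeR). The plot of levels against differences shows the called genes by annotation.

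**Figure D1:**
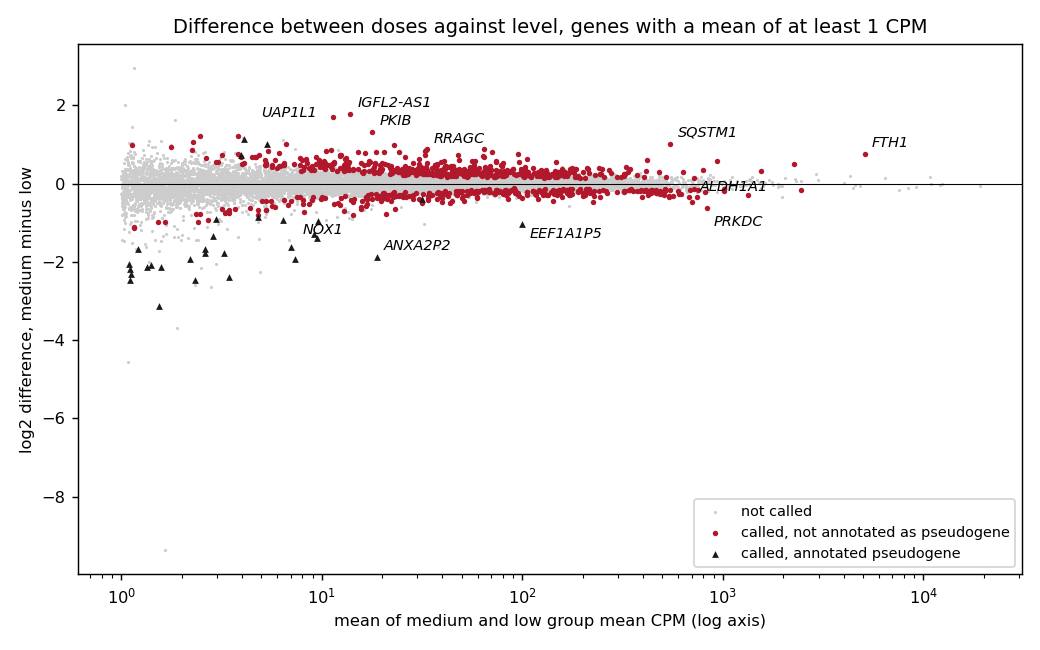
Each point is a gene with a mean of at least 1 CPM. The horizontal axis (log scale) is the mean of the medium and low group means in CPM, and the vertical axis is the log2 difference, medium minus low. Grey points were not called, red points were called and are not annotated as pseudogenes, and black triangles are called pseudogenes, which lie mainly below 0 at low levels, while SQSTM1 (1.01) and FTH1 (0.75) stand out among highly expressed genes.

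Genes of autophagy and the lysosome were among the rises, which took 2.84% of all tested genes. This list, chosen like the others with earlier results of these data known, had 26 genes, 25 of them tested. There were 13 rises and 0 falls, 12 members missed the threshold, and the median difference was 0.24, against -0.01 over all tested genes. SQSTM1 (ENSG00000161011, chromosome 5, 179806398 to 179838078, plus strand), which encodes the autophagy receptor p62, had 754 and 709 CPM at the medium dose, against 362 and 362 CPM at the low dose. Both medium libraries lay far above both low libraries, and the rise was 1.01 ± 0.05 SE (2.02-fold, edgeR adjusted p 2.23e-18), the smallest p of all genes tested. NEU1 (chromosome 6, 31857659 to 31862906, minus strand), the lysosomal sialidase, had 95.1 and 83.9 CPM at the medium dose and 49.0 and 53.6 CPM at the low dose. NEU1 rose by 0.80 ± 0.06 SE (adjusted p 3.3e-13, edgeR). The aspartic protease gene CTSD had 945 and 842 CPM at the medium dose and 725 and 681 CPM at the low dose (log2 0.35). These 3 genes held, with the largest difference in SQSTM1.

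Genes of nutrient sensing at the lysosome were also among the rises. RRAGC (chromosome 1, 38838198 to 38859823, minus strand), one of the Rag GTPases, had 42.0 and 43.2 CPM at the medium dose and 24.2 and 23.1 CPM at the low dose, a rise of 0.85 ± 0.06 SE (1.80-fold, adjusted p 5.39e-14, edgeR). FLCN (chromosome 17, 17212212 to 17237188, minus strand), which encodes folliculin, a GTPase-activating protein for RagC, had 28.9 and 32.5 CPM at the medium dose, against 17.4 and 17.8 CPM at the low dose, a rise of 0.80 ± 0.08 SE. FNIP1, a folliculin partner, had 54.9 and 61.4 CPM at the medium dose and 39.3 and 37.6 CPM at the low dose, a rise of 0.60 ± 0.10 SE. All 3 held. Of the other rises in the list, FNIP2 (0.30), LAMP2 (0.29), ATP6V0D1 (0.33), ATP6V1H (0.26) and HEXA (0.16) each lost the call without at least 1 library, with adjusted p up to 0.237 for FNIP2 without low replicate 3 and 0.271 for HEXA without the same library. With 1 library left out, 9 to 11 members of the list rose and 0 fell, and with the GC and length offsets 14 rose and 0 fell. With 57 libraries 4 rose, and with the 4 libraries alone 7 rose. Of members that did not pass, LAMP1, a main lysosomal membrane protein, had 408 and 395 CPM at the medium dose and 358 and 375 CPM at the low dose (log2 0.13, adjusted p 0.0827, edgeR).

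Families chosen after their values were seen shared genes with the lysosome list and gave some further members. The Rag family rises FNIP2, RRAGC, FLCN and FNIP1 were already counted in that list. So were the V-ATPase rises ATP6V0D1 and ATP6V1H. Of 11 tested genes for Rag, Ragulator and folliculin proteins 5 rose and 0 fell (median 0.21), including the Ragulator anchor LAMTOR1, with 78.9 and 76.6 CPM at the medium dose against 60.6 and 61.6 CPM at the low dose (log2 0.35), which held. Of 20 tested V-ATPase genes 7 rose and 1 fell (median 0.20). The subunit ATP6V1C1, with 83.7 and 89.3 CPM at the medium dose and 68.9 and 69.1 CPM at the low dose, was the only one of these 8 that held, and the fall was that of ATP6AP2, an accessory protein (-0.21). Without medium replicate 2 the family had 2 rises and 0 falls, and without low replicate 3 it had 3 rises and 0 falls. Of 8 genes for the tethering complexes HOPS and CORVET, which guide fusion with lysosomes and endosomes, 2 rose, of which VPS18 (log2 0.47) held. The MiT/TFE genes themselves were not called: TFE3 had 73.0 and 67.3 CPM at the medium dose and 66.4 and 69.4 CPM at the low dose, and TFEB had 11.2 and 11.3 CPM at the medium dose and 13.0 and 12.1 CPM at the low dose (adjusted p 0.726 and 0.424, edgeR). Their transcript levels say nothing of where the proteins were in the cell.

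**Figure D2:**
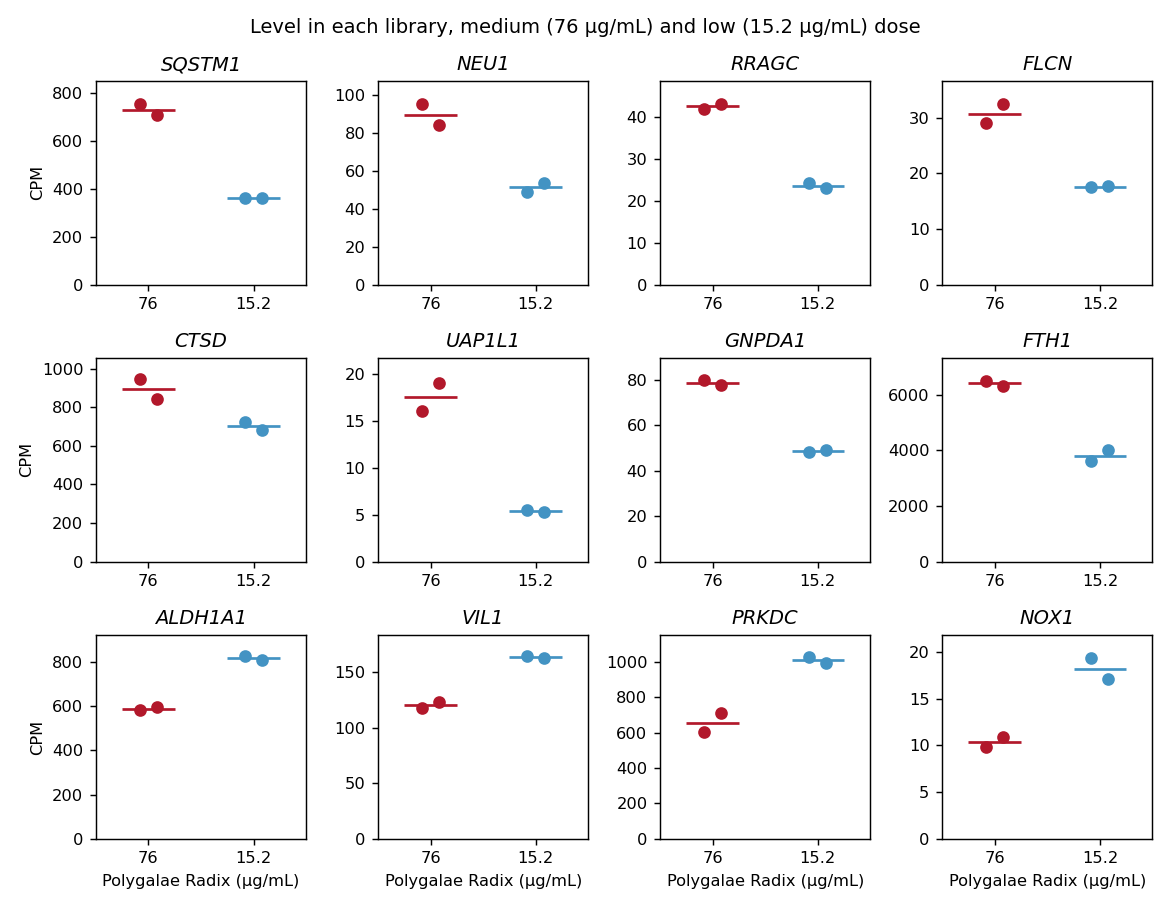
Level in CPM (vertical axes, from 0) of 12 genes in each library, with medium-dose libraries (76 µg/mL, red) left of low-dose libraries (15.2 µg/mL, blue). Points are libraries and horizontal lines are group means, with SQSTM1 at 754 and 709 against 362 and 362 CPM. Libraries of both doses do not overlap for these genes, which adds no support, since the genes shown were called.

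Promoters of several of these genes carry the E-box core. The windows shown run from 250 bases before to 50 bases after the gene's start in RefSeq (GRCh38.p14), 5′ to 3′ on the gene's strand, and capitals mark CACGTG. They are shown because 5 of them belong to genes with clear rises in the lysosomal and amino sugar groups, and the sixth, of SQSTM1, has no match.
RRAGC (GRCh38.p14, chr1:38859723-38860022, - strand): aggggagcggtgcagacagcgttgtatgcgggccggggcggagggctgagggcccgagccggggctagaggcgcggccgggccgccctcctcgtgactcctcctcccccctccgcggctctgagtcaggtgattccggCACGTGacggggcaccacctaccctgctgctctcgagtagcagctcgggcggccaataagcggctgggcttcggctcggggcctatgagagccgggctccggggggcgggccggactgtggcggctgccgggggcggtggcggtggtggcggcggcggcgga
NEU1 (GRCh38.p14, chr6:31862772-31863071, - strand): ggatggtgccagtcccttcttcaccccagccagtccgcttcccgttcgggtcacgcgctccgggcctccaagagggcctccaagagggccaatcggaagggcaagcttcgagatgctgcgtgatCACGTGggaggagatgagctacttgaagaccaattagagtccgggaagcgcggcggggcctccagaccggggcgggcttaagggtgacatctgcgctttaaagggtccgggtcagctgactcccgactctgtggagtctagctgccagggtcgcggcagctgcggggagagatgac
FNIP1 (GRCh38.p14, chr5:131796968-131797267, - strand): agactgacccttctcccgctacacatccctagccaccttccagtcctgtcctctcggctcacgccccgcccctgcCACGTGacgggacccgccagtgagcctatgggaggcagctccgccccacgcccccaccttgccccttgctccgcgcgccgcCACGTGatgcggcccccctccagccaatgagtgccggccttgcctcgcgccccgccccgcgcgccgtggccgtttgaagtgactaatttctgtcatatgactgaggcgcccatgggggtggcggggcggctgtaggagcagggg
GNPDA1 (GRCh38.p14, chr5:142012978-142013277, - strand): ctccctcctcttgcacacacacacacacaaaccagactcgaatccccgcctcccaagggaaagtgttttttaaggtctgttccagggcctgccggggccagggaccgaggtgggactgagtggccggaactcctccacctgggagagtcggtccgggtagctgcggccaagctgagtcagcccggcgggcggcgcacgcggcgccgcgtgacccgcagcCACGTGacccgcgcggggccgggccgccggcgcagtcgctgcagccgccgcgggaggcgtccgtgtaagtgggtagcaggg
AMDHD2 (GRCh38.p14, chr16:2520121-2520420, + strand): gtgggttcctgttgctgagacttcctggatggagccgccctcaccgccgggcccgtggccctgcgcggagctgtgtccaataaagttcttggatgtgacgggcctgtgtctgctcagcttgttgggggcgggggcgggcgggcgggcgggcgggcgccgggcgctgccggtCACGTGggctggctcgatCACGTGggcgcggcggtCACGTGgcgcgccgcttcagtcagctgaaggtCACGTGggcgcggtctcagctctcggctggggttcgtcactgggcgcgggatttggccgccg
SQSTM1 (GRCh38.p14, chr5:179806143-179806442, + strand): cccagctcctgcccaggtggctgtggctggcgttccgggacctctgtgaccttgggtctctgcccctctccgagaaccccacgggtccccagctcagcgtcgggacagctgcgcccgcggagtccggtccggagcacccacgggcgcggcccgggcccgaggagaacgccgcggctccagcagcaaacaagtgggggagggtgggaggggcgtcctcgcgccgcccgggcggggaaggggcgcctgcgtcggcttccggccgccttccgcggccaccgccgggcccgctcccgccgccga
The window of AMDHD2 held 4 copies, that of FNIP1 held 2 and those of RRAGC, NEU1 and GNPDA1 held 1 each. The motif was chosen after the differences were known. CACGTG reads the same on both strands, and it was found in 23.2% of the windows of genes that rose (370 of the 482 had one in the table), 7.79% of those that fell (244 of 358), 9.55% of those tested but not called and 7.43% of all 27305 windows. The extended form TCACGTG, searched on both strands and always overlapping a CACGTG, was found in 18.6%, 3.69% and 5.35% of the rising, falling and uncalled windows and in 3.82% of all. Median GC content of the windows was 69.7% for rises, 63.3% for falls, 65.0% for uncalled genes and 58.3% for all, so composition moved with these shares, and its part was not tested. A match describes the letters of a window, not binding, and which factor, if any, binds there was not tested.

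Amino sugar salvage genes showed some of the largest rises. This family, also chosen after its values were seen, recovers and activates N-acetylglucosamine freed from sugar chains. UAP1L1 (chromosome 9, 137077501 to 137084539, plus strand), a homologue of the enzyme that makes UDP-N-acetylglucosamine, had 16.0 and 19.0 CPM at the medium dose and 5.45 and 5.25 CPM at the low dose, a rise of 1.71 ± 0.12 SE (3.26-fold, adjusted p 4.55e-14, edgeR). GNPDA1, which converts glucosamine 6-phosphate to fructose 6-phosphate, had 79.7 and 77.4 CPM at the medium dose, against 48.1 and 49.2 CPM at the low dose (log2 0.69 ± 0.05 SE). AMDHD2, which removes the acetyl group from N-acetylglucosamine 6-phosphate, had 43.2 and 38.0 CPM at the medium dose and 24.6 and 24.6 CPM at the low dose (log2 0.72 ± 0.10 SE). These 3 held, while the kinase NAGK (0.28) lost its call without medium replicate 2 (adjusted p 0.135). In all 4 of 10 tested members rose and 0 fell, and the median of the family was -0.04, and the other 6 did not pass the test.

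Both ferritin genes rose, and the NRF2 target list, which holds them, had members in both directions. FTH1, the ferritin heavy chain that oxidises iron for storage, had 6500.5 and 6296 CPM at the medium dose and 3611 and 4002 CPM at the low dose, a rise of 0.75 ± 0.07 SE (adjusted p 5.37e-10, edgeR). FTL, the light chain, had 2656 and 2629 CPM at the medium dose, against 1833 and 1890.4 CPM at the low dose (log2 0.51). HMOX1, the haem oxygenase that frees iron from haem, had 16.3 and 16.0 CPM at the medium dose and 10.5 and 10.1 CPM at the low dose (log2 0.65), and OSGIN1, an oxidative stress growth inhibitor, rose by 0.80. The NRF2 list had 6 rises and 2 falls of 24 (median 0.06). NQO1, the quinone reductase often used as an NRF2 readout, fell to 423 and 425 CPM at the medium dose, against 484 and 490.2 CPM at the low dose (log2 -0.20), a call lost without medium replicate 2 (adjusted p 0.0611) or low replicate 3 (0.0701). The transporter gene ABCC3 fell by 0.24 and held. GCLC (0.23) and AKR1B10 (0.21) rose but did not hold (adjusted p up to 0.193 and 0.175, both without medium replicate 2). On the side of iron uptake, the transferrin receptor gene TFRC fell by 0.31, with an adjusted p of 0.0624 without medium replicate 2, and ACO1, which encodes the iron-regulatory aconitase, fell by 0.36 and held.

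Other large rises fell into no list or into small groups. IGFL2-AS1 (chromosome 19, 46189166 to 46203083, minus strand), a long non-coding RNA antisense to IGFL2, had 21.4 and 21.5 CPM at the medium dose and 6.69 and 5.86 CPM at the low dose, a rise of 1.77 ± 0.12 SE (adjusted p 5.99e-15, edgeR); without a stated strand setting, reads of an antisense pair cannot be told apart with certainty. PKIB, an inhibitor of protein kinase A, had 25.6 and 25.4 CPM at the medium dose, against 10.3 and 10.3 CPM at the low dose (log2 1.31). ICAM1, an adhesion molecule for leukocytes, had 9.42 and 8.28 CPM at the medium dose and 4.12 and 4.65 CPM at the low dose (log2 1.01). With TNFAIP2 (0.36) it made the 2 rises among 13 tested genes of the NF-kB and chemokine list, where 0 fell. GDF15, a stress cytokine and p53 target, had 88.8 and 78.4 CPM at the medium dose and 47.2 and 43.5 CPM at the low dose (log2 0.88). It was the only one of 3 rises in the p53 list of 16 that held, as CDKN1A (0.46) and PHLDA3 (0.42) had adjusted p of 0.0943 and 0.491 without medium replicate 2.

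Among the remaining rises by size were the serine protease gene PRSS22 (0.99), the related PRSS30P, annotated as a pseudogene (1.13), the long non-coding RNA UCA1 (0.88), the circadian repressor BHLHE40 (0.86), the proline transporter gene SLC6A20 (0.84), the arginine deiminase PADI1 (0.83) and the ERK phosphatase DUSP5 (0.82). STX3, an apical syntaxin, had 173 and 178 CPM at the medium dose and 119 and 121 CPM at the low dose (log2 0.54), and the phosphatase gene DUSP3 had 87.1 and 89.2 CPM at the medium dose and 60.4 and 60.7 CPM at the low dose (log2 0.54). Each gene of these 2 sentences held. The nuclear RNAs NEAT1, the scaffold of paraspeckles, and MALAT1 were called as rises (0.60 and 0.57), but MALAT1 rested on medium replicate 2, at 1307 CPM against 934 CPM in medium replicate 3 and 758 and 751 CPM at the low dose, with an adjusted p of 0.547 without it. Cholesterol synthesis genes made small rises: 6 of 25 rose and 0 fell (median 0.15), none of the 6 held, and the largest was MVD, a mevalonate pathway decarboxylase, at 0.33. Without medium replicate 2 the list had 2 rises, without low replicate 3 it had 0, and with the GC and length offsets it had 11.

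**Figure D3:**
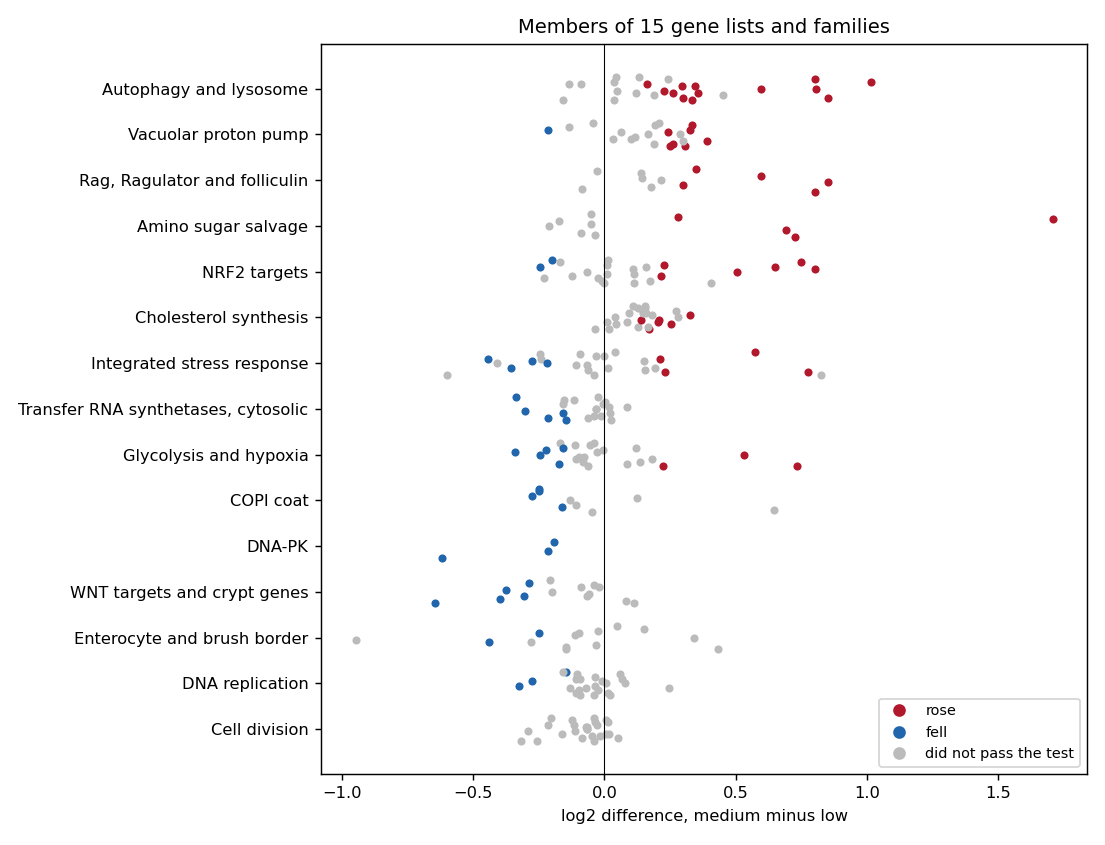
Log2 difference, medium minus low (horizontal axis), of the tested members of 15 gene lists and families (rows, spread vertically so that points do not hide each other). Red points rose, blue points fell and grey points did not pass the test. The lysosome list has 13 red and 0 blue points, and the list of cell division genes has neither.

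Outside pseudogenes 312 genes fell, and 4 of them that kept the call under every left-out library are given first. ALDH1A1 (chromosome 9, 72900662 to 73080442, minus strand), a retinal dehydrogenase, fell to 581 and 595 CPM at the medium dose, against 825 and 809.5 CPM at the low dose (log2 -0.47 ± 0.04 SE, adjusted p 2.43e-11, edgeR). VIL1, which encodes villin, a bundler of actin in microvilli, had 118 and 123 CPM at the medium dose and 164 and 162 CPM at the low dose (log2 -0.44 ± 0.04 SE). NOX1, the superoxide-producing NADPH oxidase of colon epithelium, had 9.82 and 10.9 CPM at the medium dose and 19.3 and 17.1 CPM at the low dose (log2 -0.82 ± 0.10 SE, 1.76-fold lower). PRKDC, the catalytic subunit of the DNA-dependent protein kinase, had 605 and 708 CPM at the medium dose, against 1024 and 993 CPM at the low dose (log2 -0.62 ± 0.09 SE). These 4 held without any 1 of the 4 libraries. Further falls that held were SERPINA5, a protease inhibitor (-0.81), FAXDC2, a sterol hydroxylase family member (-0.72), the GABA receptor subunit gene GABRP (-0.71), the water channel gene AQP1 (-0.68), CSPG4, a membrane proteoglycan (-0.66), SELENBP1, a methanethiol oxidase (-0.65), and the endothelin gene EDN1 (-0.60). The Notch ligand gene DLL4 (-0.57), the mTOR inhibitor gene DEPTOR (-0.66), the giant muscle protein gene NEB (-0.67), the sugar transporter gene SLC2A12 (-0.59) and SMIM6 (-0.64), which encodes a small membrane protein, did not hold, with adjusted p up to 0.209, 0.134, 0.371, 0.151 and 0.132.

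Of 14 tested WNT target and crypt genes 5 fell and 0 rose (median -0.14), while 2.11% of all tested genes fell. With 57 libraries 0 of the list fell. CD44, a hyaluronan receptor, had 444 and 464 CPM at the medium dose and 562 and 559 CPM at the low dose (log2 -0.30), and it alone of the 5 held. LGR5, the receptor that marks intestinal stem cells, had 25.5 and 27.2 CPM at the medium dose and 35.1 and 34.3 CPM at the low dose (log2 -0.40), with an adjusted p of 0.0563 without medium replicate 2. Without low replicate 3 the list had 2 falls. In the brush border list 2 of 14 fell, VIL1 and USH1C (-0.25, adjusted p 0.167 without medium replicate 3), and in the goblet cell list 2 of 18 fell, REG4 (-0.33) and GALNT12 (-0.19), neither of which held (adjusted p up to 0.199 and 0.167).

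The integrated stress response list had 4 rises and 4 falls among 25 tested genes, and 5 of 20 cytosolic tRNA synthetases fell. ASNS, which makes asparagine, had 36.4 and 39.3 CPM at the medium dose, against 53.9 and 49.1 CPM at the low dose (log2 -0.44 ± 0.06 SE, adjusted p 8.13e-07, edgeR). PSAT1, of serine synthesis, had 72.2 and 73.5 CPM at the medium dose and 88.1 and 88.4 CPM at the low dose (log2 -0.28). Both held, while PHGDH (-0.36) and SHMT2 (-0.22) did not, with adjusted p of 0.109 and 0.111 without medium replicate 3 and, for SHMT2, 0.199 without low replicate 3. In the other direction DDIT3, the stress factor CHOP, had 7.24 and 8.23 CPM at the medium dose and 4.63 and 4.39 CPM at the low dose (log2 0.78) and held. PPP1R15A, which promotes dephosphorylation of eIF2 alpha, rose by 0.57, with an adjusted p of 0.186 without medium replicate 2. With TRIB3 (0.21) and SLC3A2 (0.23), whose adjusted p reached 0.212 and 0.324 with 1 library left out, the list of 25 tested genes had 4 rises and 4 falls. Of 20 cytosolic tRNA synthetases 5 fell and 0 rose (median -0.04). LARS1, the leucyl enzyme, with 151 and 159 CPM at the medium dose and 193 and 189.8 CPM at the low dose, was the one that held. EPRS1, IARS1, QARS1 and MARS1 fell by 0.34, 0.22, 0.16 and 0.15, with adjusted p up to 0.0989, 0.0891, 0.160 and 0.220.

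Among secretory, glycolytic and DNA metabolism genes most falls were below 1.3-fold. In the COPI coat, which carries cargo from the Golgi back to the endoplasmic reticulum, 4 of 9 members fell and 0 rose, led by COPA with 182 and 185 CPM at the medium dose against 221 and 223 CPM at the low dose (log2 -0.28), which alone held. The family was chosen after its values were seen, as was that of the 3 DNA-PK subunits, of which XRCC5 (-0.19) and XRCC6 (-0.21) fell with PRKDC but lost the call without medium replicate 2 (adjusted p 0.0624) and low replicate 3 (0.0741). In the glycolysis and hypoxia list of 23 there were 3 rises and 5 falls. PGK1, LDHA, PKM and GPI, enzymes of glycolysis, fell by 0.25, 0.22, 0.17 and 0.16, and the first 2 held, while PKM and GPI had adjusted p of up to 0.221 and 0.266. CA9, a carbonic anhydrase induced by hypoxia, fell by 0.34 (adjusted p 0.154 without medium replicate 3), whereas ENO2 rose by 0.53 and held, and ADM (0.73) and VEGFA (0.22) rose without holding (adjusted p up to 0.210 and 0.609). RRM1, the large subunit of ribonucleotide reductase, had 197 and 209 CPM at the medium dose and 255 and 254 CPM at the low dose (log2 -0.33), the one of 3 falls in the DNA replication list of 25 that held.

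Cell division genes were not called in either direction (0 of 25, median -0.07). TOP2A, which untangles replicated DNA, had 403 and 439 CPM at the medium dose and 529 and 500.1 CPM at the low dose. Its adjusted p was 0.0666 (edgeR). No member was called of the lists of tubulins (11 tested), ribosome biogenesis (23), proteasome (25), mitochondrial transcripts (13), cytosolic ribosomal proteins (31), metallothioneins (6) and targets of the drug sensors PXR and CAR (8). At an unadjusted p under 0.05 in edgeR's test there were 1 member of the cell division list, 2 of the tubulins, 5 of ribosome biogenesis, 3 of the proteasome, 1 of the cytosolic ribosomal proteins, 1 of the PXR and CAR targets and 0 of the other lists named. DESeq2 called 1 member each of the cell division, ribosome biogenesis and proteasome lists and 0 of the other lists, and limma-voom called 0 in all of them. Of the cell division genes 4 fell with no filter on low counts, 1 with the 12 libraries of the set and 1 with the GC and length offsets. Other lists had few calls, where 2.84% of all tested genes rose and 2.11% fell. MAPK output had 2 rises of 17, of which DUSP5 held, fatty acid synthesis had 1 rise of 12 (ACSS2, an acetyl-CoA synthetase, which held), and actin and SRF targets had 2 falls of 17, neither of which held. Heat shock had 1 fall of 17 (HSPD1, -0.19), ER chaperones 2 falls of 20 (HSPA5, -0.17, and PDIA6, -0.19), AHR targets 2 falls of 8 (ALDH3A1, -0.21, and NQO1), none of which held (adjusted p of HSPD1, HSPA5, PDIA6 and ALDH3A1 up to 0.227, 0.257, 0.208 and 0.316), the nuclear respiratory chain had 3 falls of 23, of which ATP5F1A held, and fatty acid oxidation 1 rise and 3 falls of 15. The mitochondrial oxidation enzyme HADHA (-0.26) held among the falls. Interferon response genes had 3 rises of 20 (IFIT1, 0.68, IFIT3, 0.48, and IRF1, 0.29), none of which held, with adjusted p up to 0.326, 0.204 and 0.0805.

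Pseudogenes made up most large falls and rested on 1 library. Of 46 pseudogenes called as falls, 44 had their highest level of the 4 libraries in low replicate 3, the library with 0.322% of counts on processed pseudogenes. ANXA2P2, a processed copy of annexin A2, had 7.40 and 8.85 CPM at the medium dose, against 9.75 CPM in low replicate 2 and 49.2 CPM in low replicate 3 (log2 -1.87 ± 0.46 SE, adjusted p 0.00855, edgeR, and 0.895 without low replicate 3). EEF1A1P5, a copy of an elongation factor gene, had 66.8 and 64.7 CPM at the medium dose and 72.5 and 195 CPM at the low dose (adjusted p 0.904 without low replicate 3). The calls of RPS18P5, RPL7P1, RPL17P6, RPL6P27, PDIA3P1, HNRNPA1P7, LDHAP4 and of HNRNPA1L3, which is annotated as protein coding, were also lost without that library, with adjusted p of 0.319 to 0.989. RSEM divides reads among near-identical copies, so these values are uncertain to that extent. Left out of the test altogether, pseudogenes took the count to 790 calls, 470 rises and 320 falls.

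How the next 5-fold step, from 76 to 380 µg/mL, moved the same genes was compared by their own values, since both steps share the medium libraries and are not independent. Between high and medium dose 3200 genes were called, 18.8% of those tested, of which 1156 rose (6.81%) and 2044 fell (12%). SQSTM1 averaged 367 CPM in vehicle, 362 CPM at the low, 732 CPM at the medium and 871 CPM at the high dose, rising by a further 0.25 between medium and high (adjusted p 0.000219, edgeR). RRAGC, NEU1, FLCN, FNIP1, GNPDA1 and AMDHD2 had high minus medium differences of 0.04, 0.00, 0.14, 0.15, -0.01 and 0.04, none of them called. UAP1L1 fell to 13.3 and 12.7 CPM at the high dose, against 16.0 and 19.0 CPM at the medium dose (high minus medium -0.43, edgeR adjusted p 0.0026, and 0.108 without medium replicate 3). It was 1 of 4 falls, with 0 rises, among the 10 tested genes of amino sugar salvage at this step. Other lysosomal genes were lower at the high dose than at the medium dose: CTSD averaged 777 CPM in vehicle, 703 CPM at the low, 893 CPM at the medium and 667 CPM at the high dose (high minus medium -0.42, adjusted p 1.87e-07). In the autophagy and lysosome list 1 gene rose and 9 fell between high and medium dose (median -0.09), LAMP2 (-0.33), LAMP1 (-0.36) and CTSB (-0.39) among the falls.

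Among the falls, ALDH1A1 averaged 813 CPM in vehicle, 817 CPM at the low, 588 CPM at the medium and 268 CPM at the high dose, and VIL1 fell by a further 1.14 between medium and high dose. The glycolytic pyruvate kinase gene PKM fell by 0.17 between medium and low and by 0.99 between high and medium dose. EDN1 averaged 26.5 CPM in vehicle, which is of the other library set, and 19.0 CPM at the low, 12.5 CPM at the medium and 11.8 CPM at the high dose, and its difference of -0.09 between high and medium was not called. Of the cytosolic tRNA synthetases 19 of 20 fell between high and medium dose, and of the COPI genes 8 of 9, against 12% of all tested genes.

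**Figure D4:**
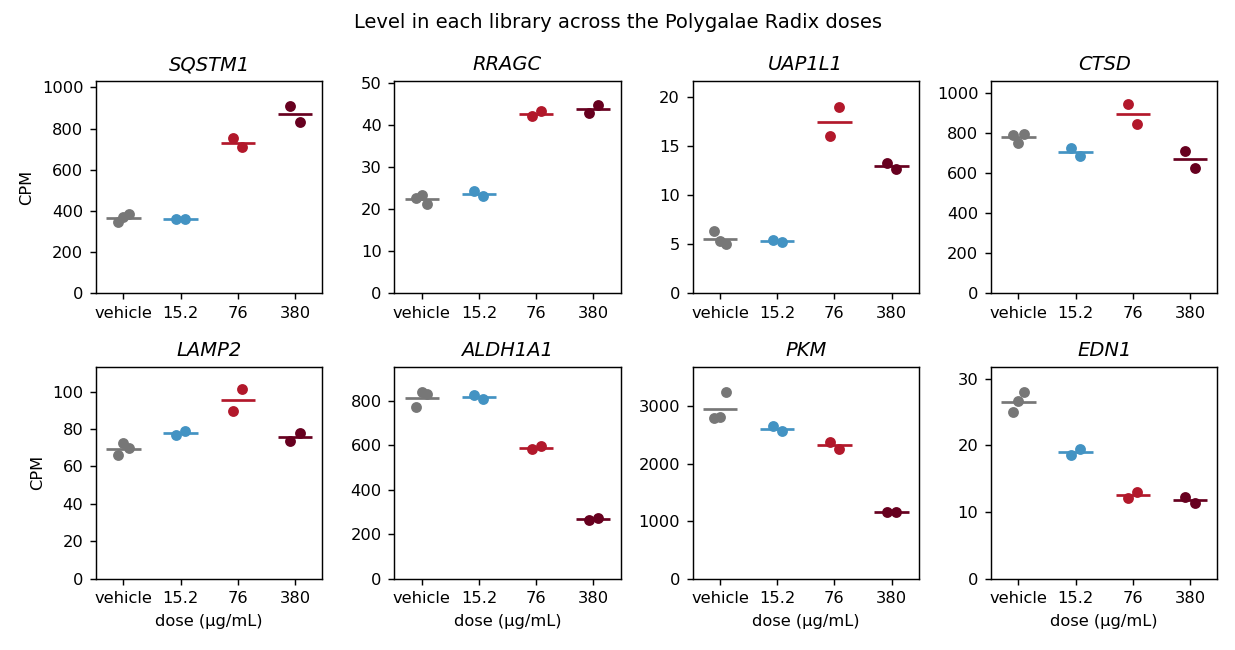
Level in CPM (vertical axes, from 0) of 8 genes in each library by dose, from vehicle through 15.2, 76 and 380 µg/mL of Polygalae Radix. Points are libraries and lines are group means. SQSTM1 is at 362 CPM at the low and 732 CPM at the medium dose, and CTSD is highest at the medium dose, with 893 CPM.

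The step of Polygalae Radix was tested against that of Aucklandiae Radix, 74 against 14.8 µg/mL, doses close to but not equal to those of Polygalae Radix. The differences between the steps passed for 507 genes, 2.99% of those tested, of which 263 were higher (1.55%) and 244 lower (1.44%) in Polygalae Radix. In the autophagy and lysosome list 8 of 25 were higher and 0 lower. SQSTM1 had 754 and 709 against 362 and 362 CPM in Polygalae Radix, and 437 and 428 against 351 and 360.0 CPM in Aucklandiae Radix, medium against low dose, a difference between steps of 0.73 ± 0.07 SE (adjusted p 2.38e-09, edgeR). RRAGC had 19.9 and 20.4 CPM at the medium and 22.3 and 21.7 CPM at the low dose of Aucklandiae Radix, a difference between steps of 0.98. FLCN differed by 0.99, NEU1 by 0.73, GNPDA1 by 0.80, AMDHD2 by 0.82 and PKIB by 1.11.

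The largest positive differences were those of UAP1L1 (1.87), SLC6A20 (1.43), IGFL2-AS1 (1.31), LINC00261 (1.27) and ICAM1 (1.17). LINC00261, a long non-coding RNA of endoderm, was not called in Polygalae Radix (16.0 and 15.4 CPM at the medium and 17.5 and 15.6 CPM at the low dose, overlapping), and its difference came with 5.63 and 5.71 CPM at the medium and 15.2 and 13.6 CPM at the low dose of Aucklandiae Radix. Likewise the negative differences of AKR1C1 (-1.21) and AKR1C2 (-1.11) came with Aucklandiae Radix. AKR1C1, an aldo-keto reductase and NRF2 target, had 64.3 and 59.6 CPM at the medium and 27.9 and 25.1 CPM at the low dose of Aucklandiae Radix. In Polygalae Radix it had 21.3 and 18.2 against 20.5 and 18.7 CPM. AKR1C2 changed by 0.11 in Polygalae Radix. ITGB7, with a difference between steps of -1.12, changed by -0.31 in Polygalae Radix, which was not called (adjusted p 0.271, edgeR). AKR1C genes are near-identical copies whose reads RSEM can divide. The negative differences of FTLP3 (-3.22) and PDIA3P1 (-1.39) rested on low replicate 3 of Polygalae Radix, and both were lost without it. In the NRF2 list the step was higher in Polygalae Radix for 2 genes (OSGIN1 and HMOX1) and lower for 11, NQO1 (-0.57) among them. A lower step is not a fall in Polygalae Radix, where 6 of the 24 genes rose and 2 fell. The median step of the list was 0.06 in Polygalae Radix and 0.34 in Aucklandiae Radix. NQO1 itself changed by -0.20 in Polygalae Radix. The steps of ASNS and ALDH1A1 were lower by 0.76 and 0.60 on the log2 scale, and within Polygalae Radix these genes changed by -0.44 and -0.47.

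In 6 other extracts with the same dose ratio and more than 1 library a dose, the ranges of the step were as follows. Over Aucklandiae Radix, Menthae Herba, Saposhnikoviae Radix, Saengmaek-san, Guibi-tang and Soyo-san, at 100 against 20 µg/mL or the doses given above, the medium minus low difference of SQSTM1 ranged between -0.03 and 0.28, that of UAP1L1 between -0.19 and 0.18, that of NEU1 between -0.07 and 0.07 and that of DUSP3 between -0.02 and 0.02. FTH1 ranged between 0.05 and 0.47 and FTL between 0.10 and 0.63 in the same extracts. These ranges are given as a description, with no test beyond that against Aucklandiae Radix.

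**Figure D5:**
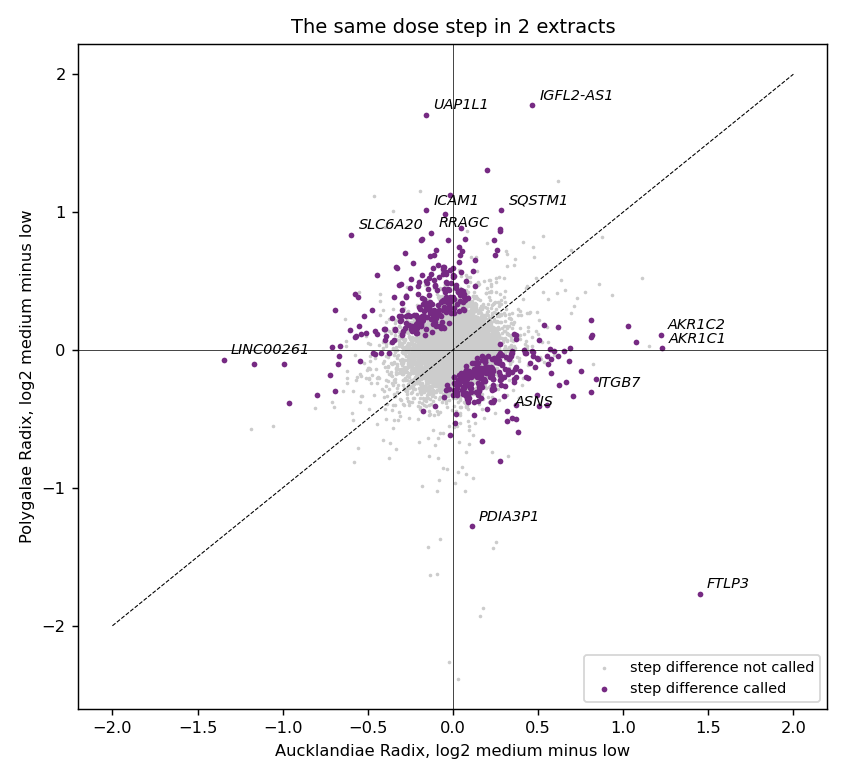
Log2 difference, medium minus low, of Polygalae Radix (vertical axis) against that of Aucklandiae Radix (horizontal axis), for genes with a mean of at least 5 CPM in 1 of the 4 groups. Purple points have a called difference between the steps, grey points do not, and the dashed line marks equal steps. UAP1L1, IGFL2-AS1 and SQSTM1 lie above the line, and AKR1C1, AKR1C2 and FTLP3 below it.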

How the data were processed

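RNA of HT29 cells was sequenced as 100 bp paired-end reads from a directional mRNA kit after 24 h of treatment, per the labels' protocols. The authors deposited expected counts per gene. Per the submitters' processing notes the tools were FastQC 0.11.9, Trim Galore 0.6.5, STAR 2.7.3a and RSEM 1.3.3 with build hg38. The labels and notes used state neither an annotation release nor a strand setting.

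Expected counts were rounded to whole numbers. Genes were filtered with filterByExpr by group and fitted with edgeR 4.0.16 (TMM factors, quasi-likelihood test, Benjamini-Hochberg adjustment) with 1 coefficient per group over 56 libraries, giving 16978 genes and 34 residual degrees of freedom. This fit leaves out Saposhnikoviae Radix low replicate 2, and the 3 libraries of Okbyeongpung-san, with 1 library a dose, are not in it. Genes under an adjusted p of 0.05 were called, and the SE is the log2 difference divided by the square root of F. The test was tested on simulated data for the medium minus low comparison (16884 genes): 49 of 98 genes changed 1.5-fold and 75 of 100 changed 2-fold were recovered, with 4 false calls. Simulated counts were drawn from the fitted spread, so no simulated library stood apart as low replicate 3 did. The 4 false calls therefore do not measure those of the real comparison.

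Symbols were matched for 56558 of 60675 gene IDs, coordinates and gene types come from GENCODE 29 (GRCh38), and promoters from RefSeq. Named genes are the 15 largest rises and 15 largest falls (called, at least 5 CPM in the higher group, no overlap), the 10 smallest p, called list members, up to 2 examples from lists with fewer than 2 calls, and the 5 largest differences between extracts in each direction. Some genes that this rule names are not reported here. Other genes and the families were chosen after their values were seen. The members and lists were chosen with earlier results of these data known. Alternatives were other size factors, no filter, DESeq2, limma-voom, other sets of libraries, a replicate block, GC and length offsets and leaving out libraries.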

Additional observations from a re-analysis of the deposited data

Results flagged for a closer look

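The step between medium and low dose differed between Polygalae Radix and Aucklandiae Radix, by edgeR's test of the difference itself, for 507 genes. Of the genes named, the log2 difference between the steps, Polygalae Radix minus Aucklandiae Radix, was positive for UAP1L1 (1.87), SLC6A20 (1.43), IGFL2-AS1 (1.31), LINC00261 (1.27), ICAM1 (1.17), PKIB (1.11), FLCN (0.99), RRAGC (0.98), AMDHD2 (0.82), GNPDA1 (0.80), NEU1 (0.73) and SQSTM1 (0.73). It was negative for FTLP3 (-3.22), PDIA3P1 (-1.39), AKR1C1 (-1.21), ITGB7 (-1.12), AKR1C2 (-1.11), ASNS (-0.76), ALDH1A1 (-0.60) and NQO1 (-0.57). FTLP3 and PDIA3P1 lost the call without Polygalae Radix low replicate 3.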

How the results depend on the processing

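The count of 840 genes between medium and low dose was 836 with other size factors, 837 with DESeq2, 767 with limma-voom and 950 with no filter. It was 86 with 57 libraries, 544 with the 12 libraries of the set, 192 with the 4 libraries alone and between 269 and 860 with 1 library left out. The 3200 calls between high and medium dose were 657 with 57 libraries and between 2223 and 2721 with 1 library left out. The 507 differences between extracts were 40 with 57 libraries, 334 with the 12 libraries and between 280 and 546 with 1 library left out. With replicate number as a block the counts were 912, 3369 and 573, and all 146 named calls between medium and low dose were kept, while HADHA lost its call between extracts. No label says that a replicate number marks a shared culture or day, and with 2 numbers a group the data cannot settle it: deviations from the group means correlated at -0.0045 between medium and low dose and at 0.31 between high and medium dose. Differences between medium and low dose changed sign for AKR1C1, -0.108 without medium replicate 2 and -0.0523 without low replicate 3 (range -0.108 to 0.118), for FTLP3, 0.374 without low replicate 3 (range -2.58 to 0.374), and for LINC00261, 0.0109 without low replicate 2 (range -0.15 to 0.0109); the cause was not tested. With 2 libraries a dose, simulated 1.5-fold changes were recovered in 50% of genes, so smaller differences can be missed with so few libraries.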
